A study of Mus musculus with 9 samples.

Results

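The genes described here are p53, its regulators and its target genes in mouse leukemias. The list held 32 genes, and its members were taken as the probe sets whose only gene symbol in the platform annotation was a listed gene, with 1 probe set per gene chosen by the highest mean over all 9 arrays. In this way 29 of the 32 genes were measured, by 56 probe sets, among 18193 genes represented in all. Trp53, which encodes p53 itself, the mitochondrial reductase gene Fdxr and the secreted stress factor gene Gdf15 are not analysed here. The members were of 5 kinds: 3 direct regulators, 8 genes of cell cycle and growth arrest, 10 genes of cell death, 4 genes of DNA repair and nucleotide supply, and 4 genes of metabolism and redox control.

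The study asked how loss of Af10, which works together with the histone H3K79 methyltransferase DOT1L, changes expression in leukemia driven by the MLL-AF9 fusion. All leukemias were on a mixed C57/BL6 X 129 background. In both MLL-AF9 groups, primary leukemias with 2 floxed copies of Af10 (gene symbol Mllt10) received the retroviral vector MSCV-IRES-tdTomato, were sorted and were grown again in secondary recipients, whose bone marrow was sorted for tdTomato. The 3 Af10 deleted leukemias (replicates 4, 5 and 6) carried Cre recombinase in that vector, and the 3 Af10 floxed leukemias (replicates 4, 5 and 6) carried the empty vector, so loss of Af10 and expression of Cre cannot be told apart. The remaining group was 3 primary leukemias made by transduction with Hoxa9 and Meis1, whose bone marrow was used unsorted and untreated, so oncogene, transplant generation, vector and sorting differ together between it and the MLL-AF9 groups. The labels do not say whether replicates came from separate primary leukemias or mice, and the p-values therefore measure only the spread between these samples, which may be technical.

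p53 is a transcription factor that is kept low by the ubiquitin ligase Mdm2 and its partner Mdm4, and it accumulates after DNA damage or oncogene activity. It binds DNA as a tetramer, on a pair of neighbouring motif units, and raises genes that stop the cell cycle, start cell death, repair DNA, limit oxidative stress or, as Mdm2 does, shut p53 down again. The p53 protein is regulated mainly through its stability, so the transcripts of its targets are the usual readout of its activity in expression data, although many of them are also driven by other factors.

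Sequence around the starts of these genes was searched for the p53 motif unit, which is 10 bases long and consists of 3 purines, a C, 2 bases that are A or T, a G and 3 pyrimidines. It reads the same on both strands. The search covered windows of 300 bases, from 250 bases before to 50 bases after each transcription start (RefSeq, GRCm38.p6), and overlapping matches were counted once per gene. A window was present for 23 of the 29 measured members, and 11 of these 23 (47.8%) held at least 1 unit, against 1242 of 14452 genes with a probe set (8.59%). Windows with a pair of units at most 13 bases apart were found for 8 of the 14452 genes (0.0554%), and Cdkn1a was 1 of them. The stretches below are those of members whose expression is described array by array, with the unit in capitals. They are matches of letters and say nothing of whether p53 was bound there in these cells. Near matches are not marked: the 10 bases directly after the second Cdkn1a unit miss the pattern only at their first base.
Cdkn1a, chr17:29090886-29090957, plus strand, a pair of units 12 bases apart: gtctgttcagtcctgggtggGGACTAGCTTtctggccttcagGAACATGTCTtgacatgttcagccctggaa
Mdm2, chr10:117710915-117710964, minus strand: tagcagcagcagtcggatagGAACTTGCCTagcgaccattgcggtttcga
Gadd45a, chr6:67037418-67037467, minus strand: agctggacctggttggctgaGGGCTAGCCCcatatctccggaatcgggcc
Pml, chr9:58249901-58249950, minus strand: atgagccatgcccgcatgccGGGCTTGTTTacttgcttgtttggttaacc
Sesn1, chr10:41887246-41887295, plus strand: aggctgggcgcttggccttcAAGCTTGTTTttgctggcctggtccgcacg
Gtse1, chr15:85859935-85859984, plus strand: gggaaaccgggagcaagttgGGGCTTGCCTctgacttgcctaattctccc
Ckap2, chr8:22185993-22186042, minus strand: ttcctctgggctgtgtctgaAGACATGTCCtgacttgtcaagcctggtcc
Ei24, chr9:36797315-36797364, minus strand: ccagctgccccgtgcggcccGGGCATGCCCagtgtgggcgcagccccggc
Aen, chr7:78895917-78895966, plus strand: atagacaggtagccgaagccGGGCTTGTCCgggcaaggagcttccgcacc
Polk, chr13:96519389-96519437, minus strand: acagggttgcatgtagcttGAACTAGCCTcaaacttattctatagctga
The unit began 40 bases before the start in Gadd45a and 10 bases before it in Ei24, and it began about 10 bases into the transcript in Aen and Gtse1. The starts used for Polk and Sesn1 are alternative ones far inside the gene, those of Gtse1 and Pml also lie downstream of the annotated gene start, and those of the other 6 are the annotated gene starts. Of the members that passed the test in any comparison described below, 9 had a window and 6 of these 9 (66.7%) held a unit, while the windows of Plk3, Phlda3 and Tigar held none. Of the members that passed in no comparison, 14 had a window and 5 of these (35.7%) held a unit, Cdkn1a with its pair among them. These counts are small, and whether units go with calls was not tested. Of the called members with a unit, only Gadd45a passed between deleted and floxed leukemias, and Polk fell.

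Values below are log2(intensity + 1). A gene was said to rise or fall where its limma p-value, adjusted by the Benjamini-Hochberg method over all 18193 genes, was under 0.05, and SE stands for the standard error of a fitted difference between group means of 3 arrays. Median intensities were 146 to 156 per array. Mllt10, the targeted gene, was at 9.89 to 10.19 in deleted and 10.49 to 11.20 in floxed leukemias, a difference of -0.95 (limma adjusted p = 0.0293, and 0.0736 to 0.09 without deleted replicate 4 or 5 or floxed replicate 4 or 6). Where its probes lie relative to the deleted exons is not given. Every member was above 4.71 on every array, the highest value of 9 probe sets of Y-linked genes, which gauge background here, and 27 of the 29 had a mean over 6 in every group. Background can differ between probe sets, so a value above 4.71 does not by itself show that a gene was expressed. Deleted replicate 6 had a median difference of 0.22 for genes on chromosome 1 against the other 2 deleted arrays, and floxed replicate 5 had the largest 3' minus 5' gap of the Gapdh control probe sets, a measure of RNA degradation (1.03, against 0.44 to 0.814 on the other arrays). The gap of the beta-actin control probe sets did not set that array apart (-0.374, within -0.406 to -0.337 over all arrays).

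Deletion of Af10 left most of the pathway without a detectable change. Of the 29 members, 2 rose and 0 fell, which is 6.9% of them, against 6.85% of all genes (3.22% up, 3.63% down), so the share of members called was that of the array as a whole. The risers were Gadd45a and Zmat3, both genes of growth arrest. At an unadjusted limma p under 0.05, 4 members were higher and 2 lower, beside 2233 and 1785 of the 18193 genes. The median difference was 0.07 over the members and 0.06 over all genes, with 18 members higher and 11 lower. Arrays of the groups did not overlap for 5 members that were higher in deleted leukemias and 3 that were lower, against 15.1% and 10.7% of all genes, or 25.9% together. As these are bulk samples, more cells of a type and more RNA per cell cannot be told apart.

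**Figure D1:**
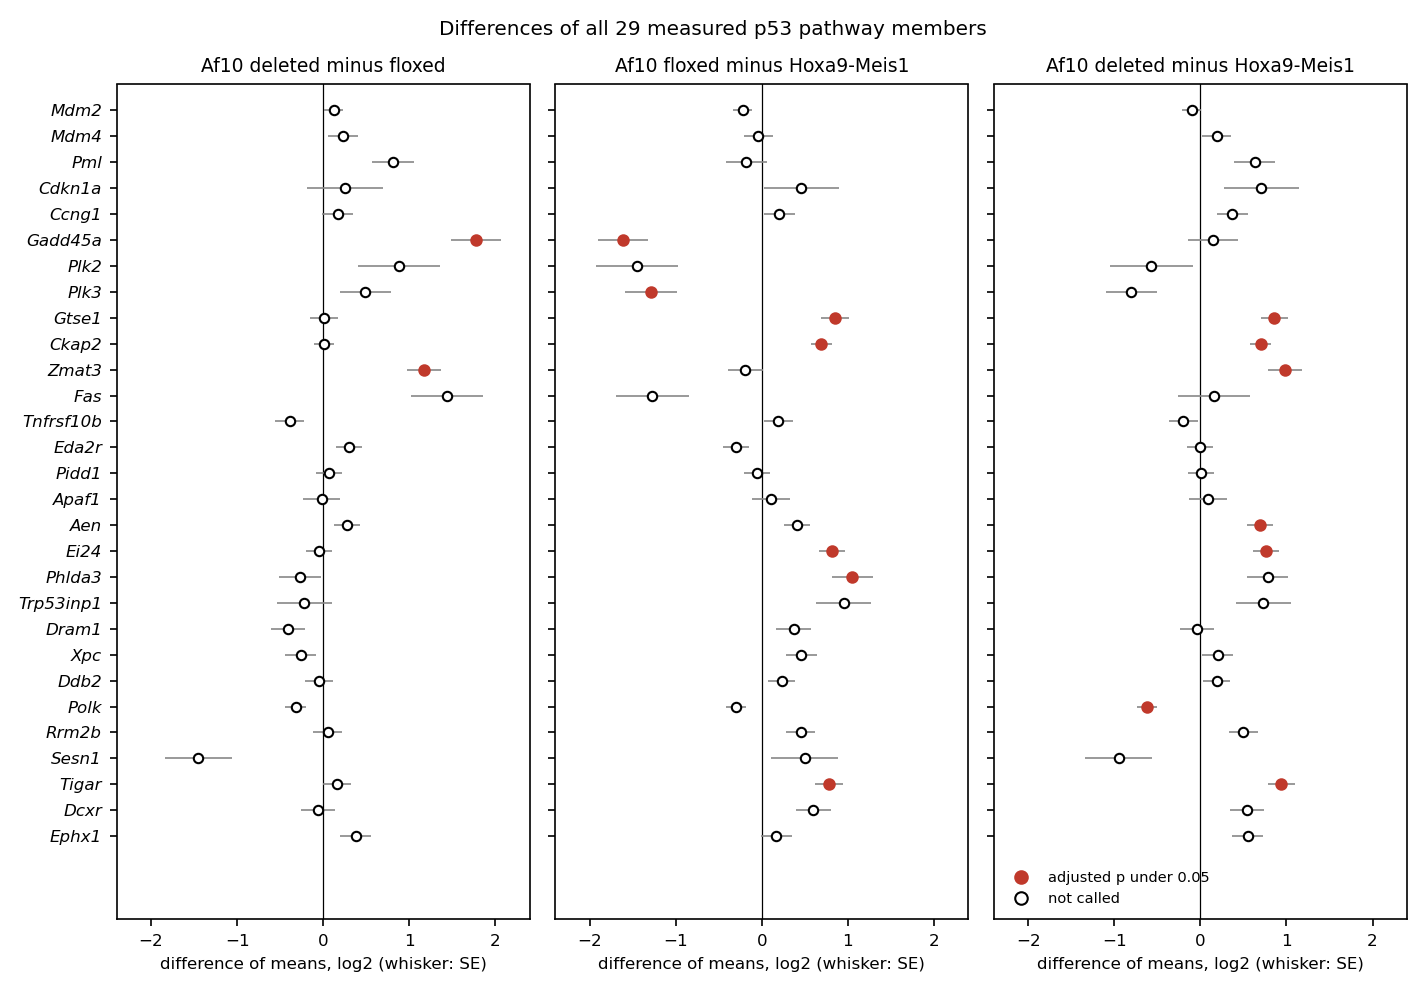
Differences between group means (log2 scale, horizontal axis) for the 29 measured members, in 3 comparisons, with the SE as whiskers; filled points passed an adjusted p of 0.05. Gadd45a and Zmat3 are filled in the first panel, and 7 members are filled in each of the other 2.

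Of the regulators, 0 of 3 were called between deleted and floxed leukemias, and limma gave 1 of them, Pml, an unadjusted p under 0.05. Mdm2, the ligase that marks p53 for degradation and is itself a p53 target, was at 11.53, 11.41 and 11.33 in deleted, 11.25, 11.41 and 11.25 in floxed and 11.56, 11.43 and 11.59 in Hoxa9-Meis1 leukemias. All 9 arrays lay within a narrow band by this probe set, and the difference between deleted and floxed was 0.12 (SE 0.11, limma adjusted p = 0.563). The floxed arrays were below all Hoxa9-Meis1 arrays (-0.22, limma adjusted p = 0.255). A second Mdm2 probe set ran from 10.09 to 11.35. It differed from Hoxa9-Meis1 leukemias by -0.53 in floxed and -0.51 in deleted leukemias, and the third by -0.07 and 0.08, none of them called. Mdm4, which binds p53 and blocks its activity, was at 11.19, 11.22 and 11.84 in deleted, 11.17, 11.29 and 11.09 in floxed and 11.20, 11.22 and 11.26 in Hoxa9-Meis1 leukemias. Deleted replicate 6 alone stood above the rest, and all 4 Mdm4 probe sets were highest on that array.

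The excess of Mdm4 in deleted replicate 6 over the mean of the other 2 deleted arrays was 0.65. Mdm4 lies on chromosome 1, and 111 of the 799 chromosome 1 genes with a mean over 6 had an excess at least as large on that array. The members Phlda3 and Ephx1 lie on the same chromosome and had an excess of 0.30 and 0.19. Over the groups, Mdm4 differed by 0.23 between deleted and floxed leukemias (SE 0.17, limma adjusted p = 0.466), and by 0.02 without deleted replicate 6. What part the chromosome has in the Mdm4 level of this sample was not tested.

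**Figure D2:**
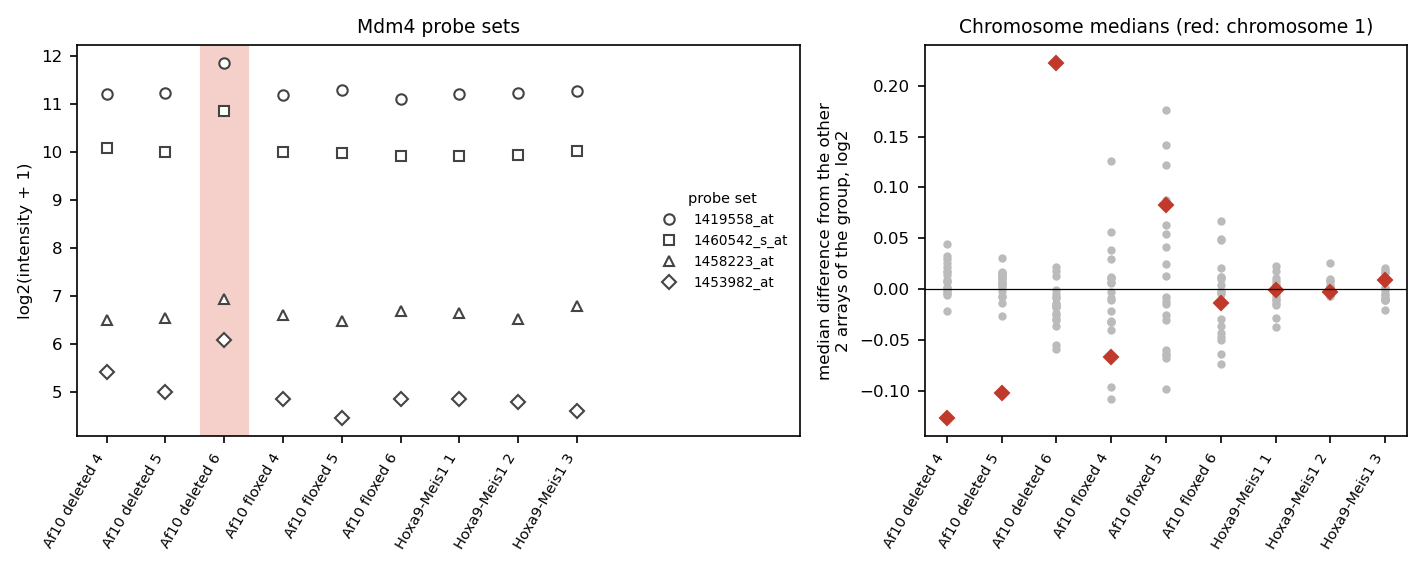
Left, log2(intensity + 1) of the 4 Mdm4 probe sets on each of the 9 arrays, with deleted replicate 6 shaded; right, the median difference of each chromosome's genes from the other 2 arrays of the same group, with chromosome 1 in red. All 4 probe sets are highest in deleted replicate 6, where the chromosome 1 median is 0.22.

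Pml, which encodes the scaffold of nuclear bodies where p53 is modified, was at 9.74, 9.49 and 10.11 in deleted, 9.20, 8.42 and 9.27 in floxed and 9.16, 9.27 and 9.0 in Hoxa9-Meis1 leukemias. The 3 deleted arrays were above all others. The difference from floxed leukemias was 0.81 (SE 0.24, 1.76-fold), with a limma adjusted p of 0.0816. Its second probe set differed by 0.95 (limma adjusted p = 0.0358 with all probe sets fitted together) and its dimmest by -0.30 (limma adjusted p = 0.493).

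Among the 8 members of cell cycle and growth arrest, 2 rose between deleted and floxed leukemias, or 25% against 6.85% of all genes. These are the same 2 genes that made up 6.9% of all 29 members. The roles were set with earlier results of these data known, so the 25% is no separate result. All 8 means were higher in deleted leukemias, as were those of 10873 of all 18193 genes, but Gtse1 and Ckap2 differed by 0.01 and changed sign in some alternatives. The median difference of these 8 was 0.37, beside 0.06 over all genes. Gadd45a, a stress sensor that binds cell cycle kinases and takes part in DNA repair, was at 11.75, 10.93 and 11.32 in deleted, 10.18, 9.18 and 9.35 in floxed and 11.45, 10.91 and 11.18 in Hoxa9-Meis1 leukemias. The floxed arrays were low, and the deleted and Hoxa9-Meis1 arrays overlapped. Gadd45a rose by 1.77 in deleted over floxed leukemias (SE 0.29, 3.40-fold, limma adjusted p = 0.00871). Without deleted replicate 6 and floxed replicate 5 together, its adjusted p was 0.0823.

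In floxed leukemias Gadd45a was also lower than in Hoxa9-Meis1 leukemias, by -1.61 (SE 0.29, 3.05-fold, limma adjusted p = 0.0114, and 0.0533 without Hoxa9-Meis1 replicate 1). The difference between deleted and Hoxa9-Meis1 leukemias was 0.15 (SE 0.29, limma adjusted p = 0.789). These comparisons share the floxed or the Hoxa9-Meis1 arrays with each other and are not independent.

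Zmat3, a zinc finger protein that binds RNA and slows growth, was at 8.47, 8.45 and 8.20 in deleted, 7.03, 7.60 and 6.96 in floxed and 7.11, 7.47 and 7.59 in Hoxa9-Meis1 leukemias. The deleted arrays were above all 6 others, and the floxed and Hoxa9-Meis1 arrays overlapped. Zmat3 rose by 1.17 over floxed (SE 0.20, 2.25-fold, limma adjusted p = 0.00904) and by 0.98 over Hoxa9-Meis1 leukemias (SE 0.20, 1.97-fold, limma adjusted p = 0.0107). It kept both calls in all 16 and all 14 alternative settings. Gadd45a and Zmat3 are each measured by a single probe set here.

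Cdkn1a encodes the kinase inhibitor p21, the best known arrest gene of the pathway, and its promoter window held the pair of units shown above. It was at 10.13, 10.85 and 10.18 in deleted, 10.31, 9.90 and 10.18 in floxed and 9.43, 8.79 and 10.81 in Hoxa9-Meis1 leukemias. All groups overlapped, and Hoxa9-Meis1 replicate 3 stood well above the other 2 of its group. The difference between deleted and floxed leukemias was 0.25 (SE 0.44, limma adjusted p = 0.779). Against Hoxa9-Meis1 leukemias the deleted group differed by 0.71 (SE 0.44, limma adjusted p = 0.339), and without Hoxa9-Meis1 replicate 3 that adjusted p was 0.0172.

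The polo-like kinase genes Plk2 and Plk3, stress-induced relatives of the mitotic kinase Plk1, had their lowest group means in floxed leukemias. Plk3 was at 7.92, 7.82 and 7.70 in deleted, 7.58, 7.01 and 7.37 in floxed and 9.03, 7.82 and 8.99 in Hoxa9-Meis1 leukemias. The floxed arrays were below all 6 others. Plk3 fell by 1.29 in floxed against Hoxa9-Meis1 leukemias (SE 0.30, 2.45-fold, limma adjusted p = 0.0303), a call that was lost in 6 of 14 alternative settings, with adjusted p up to 0.117. The difference between deleted and floxed was 0.49 (limma adjusted p = 0.378). Plk2 had group means of 7.64 ± 0.77 in deleted, 6.76 ± 0.85 in floxed and 8.20 ± 0.49 in Hoxa9-Meis1 leukemias (SD, n = 3 each), and was called in no comparison.

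Gtse1 and Ckap2 had close means in both MLL-AF9 groups and rose in both against Hoxa9-Meis1 leukemias. Gtse1, a microtubule-associated protein that carries p53 out of the nucleus in G2, was at 9.34, 9.62 and 9.34 in deleted, 9.68, 9.23 and 9.37 in floxed and 8.61, 8.37 and 8.74 in Hoxa9-Meis1 leukemias. All 6 MLL-AF9 arrays were above the 3 Hoxa9-Meis1 arrays. Gtse1 rose by 0.85 in floxed (SE 0.16, 1.81-fold, limma adjusted p = 0.0124) and by 0.86 in deleted leukemias (SE 0.16, limma adjusted p = 0.00719).

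Ckap2, a protein of the mitotic spindle, was at 9.31, 9.17 and 9.37 in deleted, 9.44, 9.20 and 9.19 in floxed and 8.51, 8.50 and 8.75 in Hoxa9-Meis1 leukemias. The groups were ordered as for Gtse1. Ckap2 rose by 0.69 in floxed (SE 0.12, 1.61-fold, limma adjusted p = 0.0108, and 0.0505 without Hoxa9-Meis1 replicate 1) and by 0.70 in deleted leukemias (SE 0.12, limma adjusted p = 0.00604). Between deleted and floxed leukemias both genes differed by 0.01 (SE 0.16 for Gtse1 and 0.12 for Ckap2).

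Other genes of the G2 and M phases moved with this pair. Of 20 such genes, 14 rose in floxed and 15 in deleted leukemias against Hoxa9-Meis1 leukemias, or 70% and 75% against 8.89% and 15.5% of all genes, with median differences of 0.74 and 0.64. This list too was chosen with earlier results of these data known. Of the same 20, 0 were called between deleted and floxed (limma, 0 at an unadjusted p under 0.05, median -0.06). Their summed intensity was 42634 to 46347 on the deleted, 44539 to 48301 on the floxed and 28024 to 31918 on the Hoxa9-Meis1 arrays. What part the share of dividing cells has in the levels of Gtse1 and Ckap2 was not tested.

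**Figure D3:**
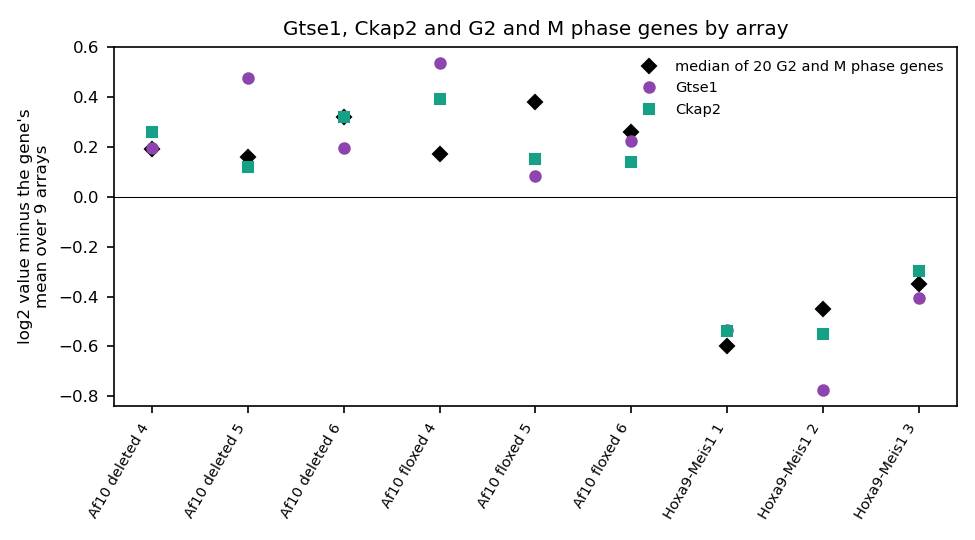
Log2 value minus the gene's mean over the 9 arrays (vertical axis) for Gtse1, Ckap2 and the median of 20 genes of the G2 and M phases, on each array. The 6 MLL-AF9 arrays lie above 0 and the 3 Hoxa9-Meis1 arrays below it for all 3 series.

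The remaining arrest gene, Ccng1, encodes cyclin G1, a target that recruits a phosphatase to Mdm2. It had means of 11.75 ± 0.27 in deleted, 11.58 ± 0.21 in floxed and 11.38 ± 0.20 in Hoxa9-Meis1 leukemias (SD, n = 3 each) and was called in no comparison. Its second probe set was higher by 0.73 in deleted than in Hoxa9-Meis1 leukemias (limma adjusted p = 0.0152 with all probe sets fitted together). The mean of its probe sets passed that test as well (0.50, limma adjusted p = 0.0327).

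Of the 10 members of cell death, 0 were called between deleted and floxed leukemias (limma, 1 at an unadjusted p under 0.05), and their median difference was -0.04. That single gene was Fas, the death receptor of the cell surface, at 7.02, 7.84 and 6.82 in deleted, 5.73, 5.61 and 6.03 in floxed and 7.19, 6.10 and 7.90 in Hoxa9-Meis1 leukemias. The floxed arrays were below all 6 others, and the deleted arrays lay within the spread of the Hoxa9-Meis1 arrays. Fas differed by 1.44 between deleted and floxed leukemias (SE 0.42, 2.71-fold), with a limma adjusted p of 0.0811, and 0.0353 with only the 2 groups fitted.

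Markers of T and NK cells moved with the deleted group. All 7 had an unadjusted limma p under 0.05 and higher means in deleted than in floxed leukemias, and 3 rose (Cd3e by 0.93, Gzma and Klrd1). Their summed intensity was 665 to 744 on the deleted, 387 to 458 on the floxed and 421 to 430 on the Hoxa9-Meis1 arrays. Klrd1 lay in the background range on all 6 floxed and Hoxa9-Meis1 arrays, Gzma on 2 of the 3 floxed arrays and Ncr1 on 8 of the 9 arrays, so no size is given for the differences of Gzma and Klrd1. Of the other marker lists, 1 of 9 late neutrophil genes rose (Cxcr2), with 2 higher and 0 lower at an unadjusted limma p under 0.05. Of 7 B cell genes 1 fell (Cd79b), but 5 had higher and 2 lower means in deleted leukemias, with a median difference of 0.39. At an unadjusted limma p under 0.05, 3 B cell genes were higher and 2 lower. Of 8 monocyte and macrophage, 6 erythroid and 8 stromal and endothelial genes, 0 were called (limma, 2, 0 and 1 at an unadjusted p under 0.05). What part the cell types of these lists have in the levels of Fas, Gadd45a or Zmat3 was not tested.

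Against Hoxa9-Meis1 leukemias, 2 of the 10 cell death genes rose in each MLL-AF9 group, or 20%. Of all genes, 5.58% rose in floxed and 9.28% in deleted leukemias. Ei24, a membrane protein of the endoplasmic reticulum induced by p53, was at 11.09, 11.26 and 10.79 in deleted, 11.03, 11.27 and 10.99 in floxed and 10.15, 10.23 and 10.47 in Hoxa9-Meis1 leukemias. The 6 MLL-AF9 arrays overlapped with each other and stood above the other 3. Ei24 rose by 0.82 in floxed (SE 0.15, 1.76-fold, limma adjusted p = 0.0129, and 0.0595 and 0.0509 without Hoxa9-Meis1 replicate 1 or 2) and by 0.76 in deleted leukemias (SE 0.15, 1.70-fold, limma adjusted p = 0.0109).

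Phlda3, an inhibitor of the survival kinase Akt, was at 7.33, 8.18 and 8.04 in deleted, 8.26, 7.80 and 8.31 in floxed and 7.31, 7.0 and 6.89 in Hoxa9-Meis1 leukemias. The floxed arrays were above all Hoxa9-Meis1 arrays, and deleted replicate 4 was level with the highest of them. Phlda3 rose by 1.05 in floxed over Hoxa9-Meis1 leukemias (SE 0.24, 2.07-fold, limma adjusted p = 0.0274), and leaving out floxed replicate 4 or 6 or any Hoxa9-Meis1 replicate gave 0.0561 to 0.0915. In deleted leukemias the difference was 0.78 (limma adjusted p = 0.0576).

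Aen, a nuclease that degrades DNA during apoptosis, was at 10.92, 10.92 and 11.17 in deleted, 10.92, 10.74 and 10.51 in floxed and 10.45, 10.12 and 10.38 in Hoxa9-Meis1 leukemias. The order was deleted, floxed, Hoxa9-Meis1 by group mean, with the deleted and floxed arrays touching at 10.92. Aen rose by 0.69 in deleted over Hoxa9-Meis1 leukemias (SE 0.15, 1.61-fold, limma adjusted p = 0.0144, and 0.0584 without Hoxa9-Meis1 replicate 2). The difference from floxed leukemias was 0.28 (limma adjusted p = 0.305).

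The other 6 members of cell death were called in no comparison. Tnfrsf10b, a death receptor for the ligand Trail, had means of 6.56 ± 0.34, 6.94 ± 0.15 and 6.75 ± 0.11 in deleted, floxed and Hoxa9-Meis1 leukemias (SD, n = 3 each), with a difference of -0.39 between deleted and floxed (limma adjusted p = 0.227). Its dimmer second probe set differed by -1.11 (limma adjusted p = 0.0151 with all probe sets fitted together), and the mean of both passed the test as well (limma adjusted p = 0.00867). Trp53inp1, a stress protein that promotes phosphorylation of p53, had means of 10.80, 11.03 and 10.08 in the same order. Dram1, a lysosomal protein of autophagy, had means of 10.02, 10.42 and 10.05.

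Apaf1, the scaffold of the apoptosome, and Pidd1, the scaffold that activates caspase 2, had means of 10.67, 10.69 and 10.58 and of 9.05, 8.98 and 9.04 in deleted, floxed and Hoxa9-Meis1 leukemias. Eda2r, a receptor of the tumor necrosis factor family, had means of 5.56, 5.26 and 5.55.

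Of the 4 members of DNA repair and nucleotide supply, 0 were called between deleted and floxed leukemias (limma, 1 at an unadjusted p under 0.05, median difference -0.15). That member was Polk, a DNA polymerase that copies past damaged bases, at 7.84, 7.74 and 7.69 in deleted, 7.89, 8.22 and 8.13 in floxed and 8.29, 8.45 and 8.40 in Hoxa9-Meis1 leukemias. The 3 groups did not overlap, with deleted lowest and Hoxa9-Meis1 highest. Polk fell by 0.62 in deleted against Hoxa9-Meis1 leukemias (SE 0.12, 1.54-fold, limma adjusted p = 0.00828), while its difference between deleted and floxed was -0.32 (limma adjusted p = 0.147). With the mean of its 2 probe sets, the former adjusted p was 0.0549, and the second probe set differed by -0.13.

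The damage recognition genes Xpc and Ddb2 were called in no comparison. Xpc had means of 11.75, 12.01 and 11.55, and Ddb2 of 10.71, 10.76 and 10.52, in deleted, floxed and Hoxa9-Meis1 leukemias. Rrm2b, the p53-induced subunit of ribonucleotide reductase, had means of 8.93, 8.88 and 8.43 and was not called either. With the mean of its probe sets, it differed by 0.70 between floxed and Hoxa9-Meis1 leukemias (limma adjusted p = 0.0368).

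Of the 4 members of metabolism and redox control, 0 were called between deleted and floxed leukemias (limma, 1 at an unadjusted p under 0.05). Sesn1, a sestrin that restrains the growth kinase mTORC1, was at 8.35, 8.79 and 9.22 in deleted, 9.30, 11.03 and 10.38 in floxed and 9.72, 9.91 and 9.58 in Hoxa9-Meis1 leukemias. The deleted arrays were below all 6 others, by little for floxed replicate 4. The difference between deleted and floxed was -1.45 (SE 0.39, 2.74-fold), with a limma adjusted p of 0.0597, and 0.00806 without floxed replicate 4. Of its 4 probe sets, 3 differed by -1.74 to -1.42 and the dimmest by -0.13.

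Tigar, which lowers glycolysis and favours the pentose phosphate pathway, was at 9.77, 9.67 and 9.66 in deleted, 9.47, 9.37 and 9.77 in floxed and 8.79, 8.48 and 9.0 in Hoxa9-Meis1 leukemias. All 6 MLL-AF9 arrays were above the others. Tigar rose by 0.78 in floxed (SE 0.16, 1.72-fold, limma adjusted p = 0.0176, and 0.0577 to 0.0644 without Hoxa9-Meis1 replicate 1 or 2 or with the mean of its probe sets) and by 0.94 in deleted over Hoxa9-Meis1 leukemias (SE 0.16, 1.92-fold, limma adjusted p = 0.00469). Dcxr, a sugar and carbonyl reductase, and Ephx1, an epoxide hydrolase, were called in no comparison. Their means were 9.65, 9.70 and 9.10 for Dcxr and 6.67, 6.30 and 6.12 for Ephx1 in deleted, floxed and Hoxa9-Meis1 leukemias.

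**Figure D4:**
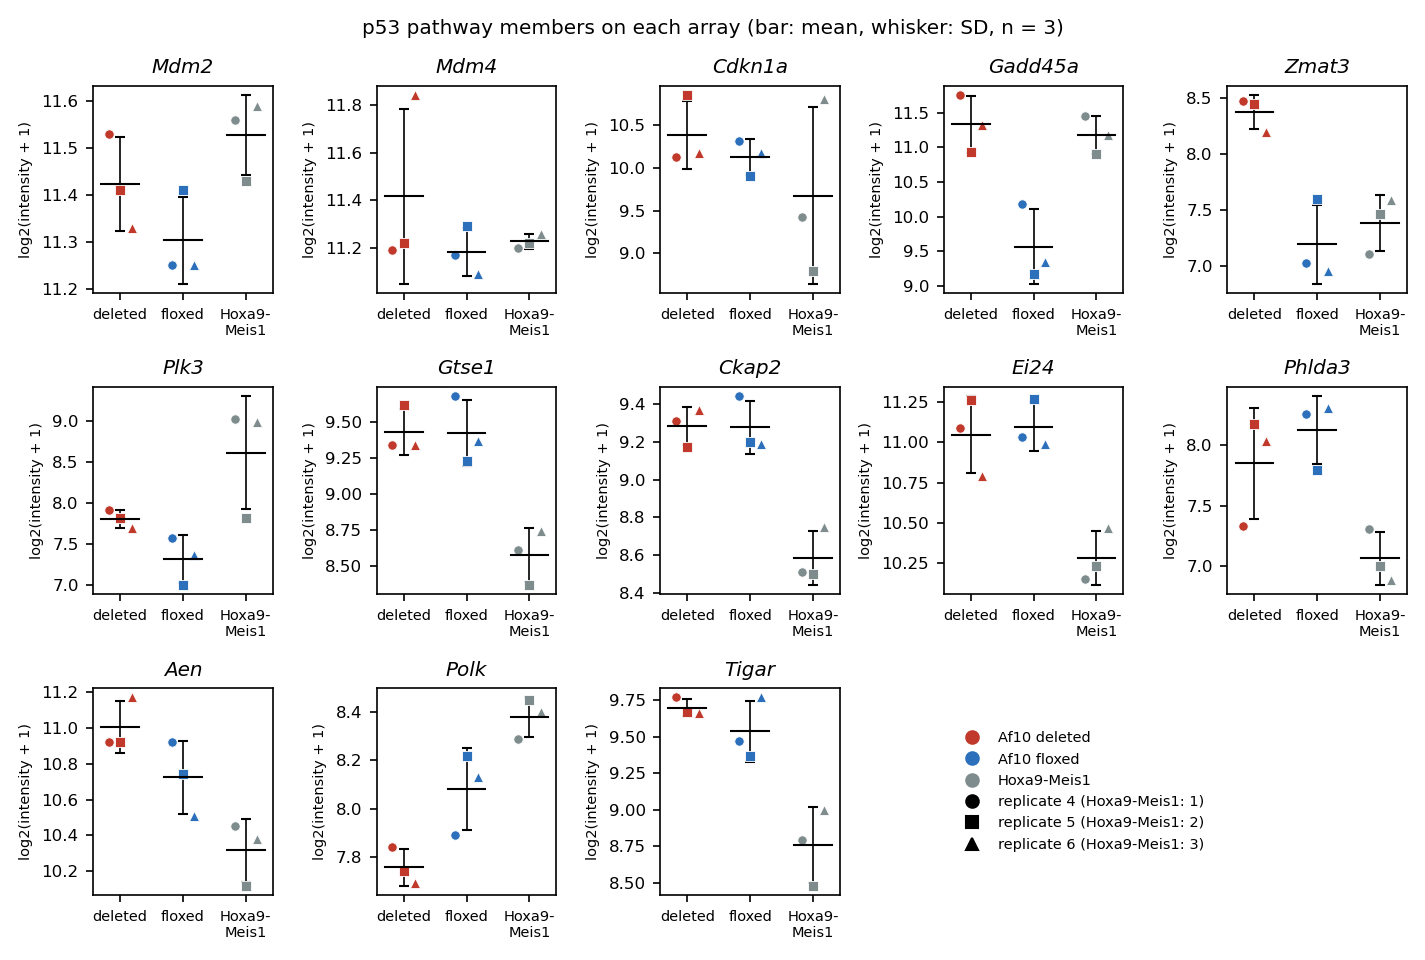
Log2(intensity + 1) (vertical axis, scaled to each panel) of 13 members on each array, with the group mean as a bar and the SD as whiskers (n = 3). Gadd45a is low in the floxed group, Zmat3 is high in the deleted group, and Gtse1, Ckap2, Ei24 and Tigar are low in the Hoxa9-Meis1 group.

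Counted over all members, floxed leukemias differed from Hoxa9-Meis1 leukemias in 7 of 29 (5 up, 2 down), or 24.1%, against 8.89% of all genes (5.58% up, 3.31% down). As the list was chosen with earlier results of these data known, the shares of members called give no independent evidence about the pathway. The members that rose were Gtse1, Ckap2, Ei24, Phlda3 and Tigar, and those that fell were Gadd45a and Plk3. Without Hoxa9-Meis1 replicate 1 the count was 1 of 29, Gtse1, and the share of all genes was 3.74%. Of the marker lists, 1 of 7 B cell genes rose in this comparison (Cd79b), with 4 of their means higher and 3 lower. No gene of the other marker lists was called. At an unadjusted limma p under 0.05, Ebf1 of the B cell list was lower (-0.42). So were the monocyte and macrophage genes Cd14 (-1.62) and Mrc1 (-0.84), while the endothelial gene Cdh5 was higher (0.48). What part these cell types have in the members' levels was not tested. The median difference was 0.20 over the members and -0.01 over all genes. Arrays of the groups did not overlap for 9 members that were higher in floxed leukemias and 6 that were lower (15.4% and 12.1% of all genes, or 27.6% together).

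Deleted leukemias also differed from Hoxa9-Meis1 leukemias in 7 of 29 members (6 up, 1 down), or 24.1%, against 15.5% of all genes (9.28% up, 6.23% down). Zmat3, Gtse1, Ckap2, Aen, Ei24 and Tigar rose and Polk fell. Markers of other cell types were called in the same comparison: 4 of 7 T and NK cell genes rose, 2 of 9 late neutrophil genes (Lcn2 by 2.15 and Cxcr2 by 2.08), 1 of 7 B cell genes (Cd79a), 1 of 6 erythroid genes (Klf1), 1 of 8 stromal and endothelial genes (Cdh5) and 0 of 8 monocyte and macrophage genes (limma, 1 at an unadjusted p under 0.05). Their part in the members' levels was not tested. The median difference was 0.20 over the members and 0.05 over all genes, and arrays did not overlap for 10 members that were higher and 2 that were lower (21.7% and 13.2% of all genes, or 34.9% together). Between them the 3 comparisons called 10 members, and 19 were called in none.

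Beyond the members, 50 other genes of the p53 pathway were measured: activators and cofactors, inhibitors, and further targets. Between deleted and floxed leukemias 4 of the 50 rose and 3 fell, or 14% against 6.85% of all genes, with a median difference of 0.01 beside 0.06 over all genes. This list was chosen with earlier results of these data known, so the 14% gives no independent evidence about the pathway. Perp, a membrane protein of desmosomes that p53 induces during cell death, was at 7.48, 8.40 and 8.77 in deleted, 5.35, 4.43 and 3.91 in floxed and 4.48, 3.90 and 4.10 in Hoxa9-Meis1 leukemias. The deleted arrays were above all others, and 5 of the other 6 values lay in the background range. Perp rose by 3.65 (SE 0.40, 12.5-fold, limma adjusted p = 0.00126), a fold that is a lower bound because 2 of the 3 floxed values lay in that range.

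Sesn3, a second sestrin, was at 6.81, 6.38 and 6.15 in deleted, 8.12, 9.21 and 8.91 in floxed and 8.12, 8.68 and 8.12 in Hoxa9-Meis1 leukemias. The deleted arrays were below all others, as for Sesn1. Sesn3 fell by 2.30 against floxed leukemias (SE 0.29, 4.92-fold, limma adjusted p = 0.00257), and its second probe set fell by 1.78. Bid, a death-promoting Bcl2 family member, was at 8.98, 9.09 and 7.97 in deleted, 10.81, 10.63 and 10.44 in floxed and 10.42, 10.69 and 10.44 in Hoxa9-Meis1 leukemias. It fell by 1.95 against floxed leukemias (3.86-fold, limma adjusted p = 0.00361), with deleted replicate 6 lowest.

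Cdkn2a, the locus of the Mdm2 inhibitor Arf and the kinase inhibitor p16, was at 7.60, 8.33 and 7.42 in deleted, 6.59, 6.74 and 6.80 in floxed and 7.03, 7.09 and 7.72 in Hoxa9-Meis1 leukemias. The deleted arrays were above the floxed arrays and overlapped the Hoxa9-Meis1 arrays. Cdkn2a rose by 1.07 over floxed leukemias (limma adjusted p = 0.0393), a call kept in 7 of 16 alternative settings. The phosphatase gene Ptprv rose by 0.73 (limma adjusted p = 0.0452) and the mTORC1 inhibitor gene Tsc2 by 0.51 (limma adjusted p = 0.0475), calls kept in 4 and 5 of 16 settings. Ptprv lies on chromosome 1 and was highest in deleted replicate 6, at 8.79. Its limma adjusted p was 0.124 without that array and 0.11 without deleted replicate 5. Tap1, a peptide transporter of antigen presentation, fell by 1.02 by its brightest probe set (limma adjusted p = 0.00575), but the other 3 differed by -0.08 to 0.18. With the mean of the 4 the difference was -0.23 (limma adjusted p = 0.218), and with the replicate block the adjusted p was 0.0527.

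**Figure D5:**
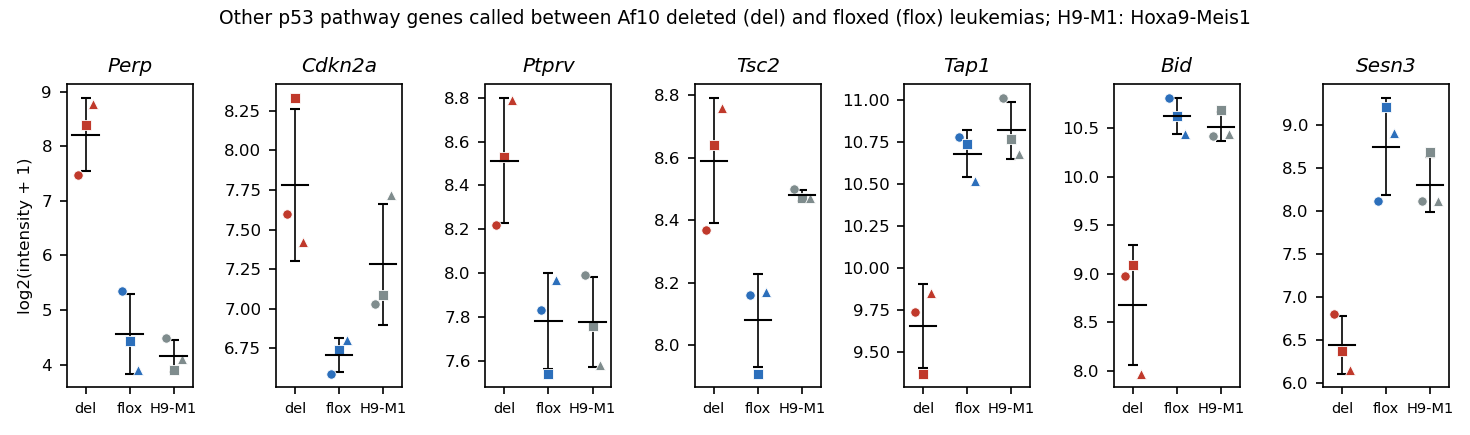
Log2(intensity + 1) (vertical axis, scaled to each panel) on each array for the 7 other p53 pathway genes called between deleted and floxed leukemias, with the group mean as a bar and the SD as whiskers (n = 3). Perp, Cdkn2a, Ptprv and Tsc2 are higher and Tap1, Bid and Sesn3 lower in the deleted group.

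The shares of the 50 other genes called against Hoxa9-Meis1 leukemias come from the same list and carry the same limit. In floxed leukemias, 3 of the 50 rose and 4 fell against Hoxa9-Meis1 leukemias, or 14% against 8.89% of all genes. The largest differences among them were those of Btg2 (-2.17, limma adjusted p = 0.0143), an inhibitor of proliferation, Ppp1r13b (-1.46, limma adjusted p = 0.00861), which encodes the p53 cofactor Aspp1, Cpt1c (0.94, limma adjusted p = 0.0144), a brain form of the fatty acid carrier carnitine palmitoyltransferase, the Btg2 relative Btg1 (-0.89, limma adjusted p = 0.0287) and the phosphatase gene Cdc25c (0.87, limma adjusted p = 0.0261). Ppp1r13b kept its call in all 14 alternatives. Leaving out single arrays ended the call of Btg2 (floxed replicate 5 or Hoxa9-Meis1 replicate 1, limma adjusted p up to 0.0621), Cpt1c (floxed replicate 5 or Hoxa9-Meis1 replicate 2, up to 0.0552), Btg1 (floxed replicate 4 or 6 or any Hoxa9-Meis1 replicate, up to 0.103) and Cdc25c (floxed replicate 4 or 5 or Hoxa9-Meis1 replicate 1 or 2, up to 0.106). The difference of Btg1 ran from -1.40 to -0.82 over its alternatives. In deleted leukemias 8 rose and 7 fell, or 30% of the 50 against 15.5% of all genes. The largest differences were those of Perp (4.06, limma adjusted p = 0.000311, a lower bound because its 3 Hoxa9-Meis1 values lay in the background range), Ppp1r13b (-1.91, limma adjusted p = 0.00131), Sesn3 (-1.86, limma adjusted p = 0.00369), Bid (-1.83, limma adjusted p = 0.00254) and Pmaip1 (-1.62, limma adjusted p = 0.0318), which encodes the death factor Noxa. The call of Pmaip1 was lost without deleted replicate 5 or 6 or any Hoxa9-Meis1 replicate, with adjusted p up to 0.114, and those of the other 4 were kept in every alternative. The p53 relatives Trp63 and Trp73 were called in no comparison (limma, 0 of 2 at an unadjusted p under 0.05 in each).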

How the data were processed

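The authors deposited intensities of 45101 probe sets on 9 one-colour Affymetrix arrays, made with RMA per the submitters' processing notes. The RMA version is not given in the sources used here. Per the labels' protocols, biotinylated cRNA came from 100 ng of total RNA. The values run from 4.60 to 32082, a linear scale, so log2(intensity + 1) was taken. Quantile normalization within RMA removes shifts common to most genes; precision is limited by having 3 arrays per group. The 64 control probe sets were left out, and 34945 probe sets had 1 gene symbol.

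Group means of all 9 arrays were fitted together by limma 3.58.1 (lmFit, eBayes) in R 4.3.3, tested on simulated data first, with two-sided tests. The members, roles and other gene lists were chosen with earlier results of these data known. Array values are given for Mdm2, Mdm4, Cdkn1a and each member called in a comparison, and for Pml, Fas and Sesn1, which were added after their values were seen. Of the other pathway genes, those called between deleted and floxed leukemias and the 5 called with the largest difference in each other comparison are named. Alternatives changed the pseudocount, normalization, filter, probe set rule, arrays and variance model. The main fit did not pair deleted and floxed samples by replicate numbers 4 to 6. Correlations of same-numbered deviations were 0.044, 0.048 and 0.010, within the -0.14 to 0.099 of differently numbered ones. No shared deviation was seen, but samples of the same number may share an origin without one, so pairing remains unknown.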

Additional observations from a re-analysis of the deposited data

How the results depend on the processing

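Between deleted and floxed leukemias the alternatives called 1 to 3 members (leaving out each replicate, 2 to 3). The lowest count, 1 (Zmat3, with 2.74% of all genes called), came from leaving out both deleted replicate 6 and floxed replicate 5. Between floxed and Hoxa9-Meis1 leukemias they called 1 to 8 (leaving out each replicate, 1 to 6), and between deleted and Hoxa9-Meis1 leukemias 7 to 12, with 12 under array weights, where 22.6% of all genes were called. With the replicate number as a block, 2 members were called between deleted and floxed leukemias, Gadd45a and Zmat3, and 3.29% of all genes. The labels do not say whether samples of the same number share an origin. Of 16 called results over 29 members and 3 comparisons, 7 kept the call in every alternative and 0 reversed. Of the uncalled results, 17 passed the threshold in some alternative, and 20 changed sign in some alternative, with reversed values of at most 0.33 in size.

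Signs that changed between deleted and floxed leukemias when single replicates were left out were those of Gtse1 (-0.09 to 0.13), Ckap2 (-0.04 to 0.09), Pidd1 (-0.03 to 0.13), Apaf1 (-0.17 to 0.20), Ei24 (-0.16 to 0.07), Trp53inp1 (-0.49 to 0.11), Ddb2 (-0.21 to 0.08), Rrm2b (-0.05 to 0.13) and Dcxr (-0.22 to 0.15). Leaving out both arrays named above gave -0.05 for Gtse1, -0.08 for Ckap2, -0.13 for Pidd1, 0.25 for Apaf1, 0.16 for Ei24, 0.33 for Trp53inp1 and 0.02 for Dcxr. Array weights gave 0.00 for Gtse1 and Ckap2, -0.03 for Pidd1, 0.03 for Apaf1, 0.05 for Ei24 and 0.11 for Trp53inp1. Averaging all probe sets of a gene gave 0.07 for Apaf1, 0.00 for Ddb2 and -0.14 for Rrm2b.

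Between floxed and Hoxa9-Meis1 leukemias, leaving out a replicate turned Mdm4 (-0.09 to 0.00), Pml (-0.33 to 0.09) and Pidd1 (-0.17 to 0.04), and averaging probe sets turned Pml (0.12). Between deleted and Hoxa9-Meis1 leukemias it turned Mdm4 (-0.02 to 0.31), Gadd45a (-0.05 to 0.36), Fas (-0.32 to 0.58), Eda2r (-0.13 to 0.10), Pidd1 (-0.10 to 0.10), Apaf1 (-0.06 to 0.31), Dram1 (-0.16 to 0.17) and Xpc (-0.01 to 0.35). There, array weights gave -0.09 for Pidd1 and 0.11 for Dram1, and repeated quantile normalization 0.00 for Pidd1. A value of 0.00 had the opposite sign before rounding. The cause of these changes was not tested.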
